A study of Homo sapiens with 4 samples.

Results

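The 10 genes described here are amino acid transporters (SLC7A1, SLC7A2, SLC7A5, SLC7A11 and SLC3A2) and the transcription factor ATF4 with genes that it is known to induce (ASNS, TRIB3, DDIT3 and SESN2). They were selected by symbol from the probe set annotation of Affymetrix Human Genome U133 Plus 2.0 arrays, which gave 10 of 19775 genes, with 21 of 54613 probe sets. The genes were chosen with results of these arrays known, and the probe set that represents each gene was the one with the highest mean log2 signal over the 4 arrays, so the values below are a description and no test was made on them. RNA came from A549 cells, a human lung adenocarcinoma line, and there was 1 array for each of 4 conditions. The cells received a non-targeting control siRNA or an siRNA to β-arrestin-1 (ARRB1), a scaffolding protein of G-protein-coupled receptors, and all were serum starved for 36 h. One array of each siRNA was of cells that were then treated with nicotine at 1 µM for 24 h, and the other of cells with no nicotine, which are called serum starved here. The depletion was transient and the experiment used a single cell line. Each condition has 1 array, so no difference could be set against replicates and precision is limited by how few arrays there are. The comparison of siRNAs in serum starved cells and that of nicotine in control siRNA cells share an array, as do the other comparisons that have a condition in common, while the 2 siRNA pairs share none and the 2 nicotine pairs share none.

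Amino acid starvation, endoplasmic reticulum (ER) stress, haem deficiency and double-stranded RNA each activate a kinase that phosphorylates eIF2α, the α subunit of a translation initiation factor. Bulk translation then falls while ATF4 mRNA is translated more, and ATF4 with a C/EBP partner induces transporters, amino acid synthesis enzymes and tRNA synthetases. Much of the regulation of ATF4 is thus translational and is not seen in its RNA level. In A549 cells, which carry a KEAP1 mutation, NRF2 is active without a stimulus and induces SLC7A11 as well.

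The DNA element that ATF4 binds with C/EBP proteins is shown because ATF4 is known to act through it at its targets. It was searched for as TGATGNAA and, for the other strand, TTNCATCA, in RefSeq promoter windows (build GRCh38.p14) of 250 bases before and 50 after each annotated start. Of the 10 genes, 8 had a window, and 3 of these 8, ASNS, SLC7A1 and SLC3A2, held a match, against 4.46% of the 27305 genes in the table. The matches are shown with their flanks, 5′ to 3′ on the strand of the gene, with the matched letters in capitals. That of ASNS (chr7:97872458-97872487, minus strand, 1 of 2 windows of the gene) began 68 bases before the start, and those of SLC7A1 (chr13:29595663-29595692, minus strand) and SLC3A2 (chr11:62881725-62881748, plus strand, 1 of 3 windows) began at bases 8 and 38 of the transcript.
ASNS: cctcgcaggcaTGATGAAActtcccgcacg
SLC7A1: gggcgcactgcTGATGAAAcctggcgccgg
SLC3A2: tgcaggactccTTACATCAgctcc
The windows of ATF4, DDIT3, SESN2, SLC7A5 and TRIB3 held no match to these letters. A match is a description of the sequence, and binding was not measured here. Known ATF4 targets were listed as such and some genes have several windows, so nothing is read from the share with a match. On their brightest probe sets, the RNA differences of the 3 genes with a match were all under 2-fold.

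The values were linear MAS5 signals, scaled by the authors to 1 level on each array. A gene was called expressed when the mean signal of its brightest probe set reached the median of all probe sets (66.3), which held for 12521 genes and for all 10 genes described here. ARRB1 itself was lower under its siRNA on 6 of 7 probe sets in each pair, with a median of 54.2% of the control siRNA signal in serum starved and 65.7% in nicotine treated cells. The epithelial markers EPCAM, CDH1, KRT8, KRT18 and KRT19 were all expressed. By log2 difference, 3 of the 5 were higher with ARRB1 siRNA in both pairs and 2 lower (1 and 2 after quantile normalization). The higher were KRT8 (0.17 and 0.03), KRT18 (0.16 and 0.38) and KRT19 (0.09 and 0.28). The lower were EPCAM (-0.02 and -0.28) and CDH1, the adhesion protein E-cadherin (-0.71 and -0.77). Of 8 measured markers of leukocytes, endothelial cells, fibroblasts and smooth muscle, COL1A1, ACTA2 and PECAM1 were expressed, none of the 8 was listed at 0, and their summed signal lay between 1586 and 1736 on the 4 arrays. Of all expressed genes, 225 differed at least 2-fold between the siRNAs in serum starved cells (127 higher and 98 lower) and 285 in nicotine treated cells (110 higher and 175 lower). Centring every array on its median gave 111 higher and 131 lower, and 148 higher and 142 lower. With nicotine, 90 were higher and 42 lower in control siRNA cells (70 and 60 when centred) and 62 higher and 120 lower in ARRB1 siRNA cells (84 and 92 when centred).

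SLC7A2, which encodes the cationic amino acid transporter CAT-2 for arginine, lysine and ornithine, had the largest difference of the 10 genes. Its brightest probe set, 225516_at, stood at 1333 without and 1519 with nicotine under control siRNA, and at 483 and 563 under ARRB1 siRNA. Both ARRB1 siRNA arrays lay below both control siRNA arrays, while nicotine made little difference within either siRNA. How many expressed genes separate the siRNAs in this way was not counted. The signal with ARRB1 siRNA was 36.3% of that with control siRNA in serum starved cells, a log2 difference of -1.46, and 37.1% in nicotine treated cells, a log2 difference of -1.43. Between the same arrays, the SD of the log2 differences of the 500 probe sets nearest in mean signal was 0.31 and 0.34. This SD holds real differences between the cells as well as measurement error. SLC7A2 was the 1 of 10 genes at least 2-fold different in each pair, where 1.8% of expressed genes were in serum starved cells (0.783% lower and 1.01% higher) and 2.28% in nicotine treated cells (1.4% lower and 0.879% higher). It was so in both pairs in the same direction, as were 0.495% of expressed genes (0.327% lower, 41 genes, and 0.168% higher). Because the genes were chosen with these differences known, nothing is read from that count. In bulk RNA, fewer cells that express a gene and less RNA in each cell cannot be told apart.
The other SLC7A2 probe sets were dim and did not follow the brightest. On 207626_s_at control siRNA cells had 38.6 without and 53.8 with nicotine, and ARRB1 siRNA cells 61.1 and 50.3. On 230658_at they were 29.3 and 17.3 with control siRNA, and 29.0 and 34.6 with ARRB1 siRNA. Neither reached the median signal of 66.3 on any array, and probe sets as dim as these had SDs of 0.86 to 1.29 between the siRNAs. The lower SLC7A2 signal thus rests on 1 probe set, on all 4 arrays.
SLC7A1 encodes CAT-1, the more widely expressed transporter of the same amino acids. Its brightest probe set stood at 3857 without and 3443 with nicotine under control siRNA, and at 4080.3 and 3859.9 under ARRB1 siRNA. The log2 differences with ARRB1 siRNA were 0.08 and 0.16, inside the SD of similar probe sets (0.24 and 0.28). The expressed probe sets 212290_at and 212292_at differed by 0.13 and 0.09 in serum starved cells and by -0.35 and -0.04 in nicotine treated cells, so the probe sets of SLC7A1 do not share a direction in the latter. The remaining 2 of its 5 probe sets were dim, and 215979_s_at had log2 differences of -2.34 and -1.64 where the SDs were 1.62 and 1.55.

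**Figure D1:**
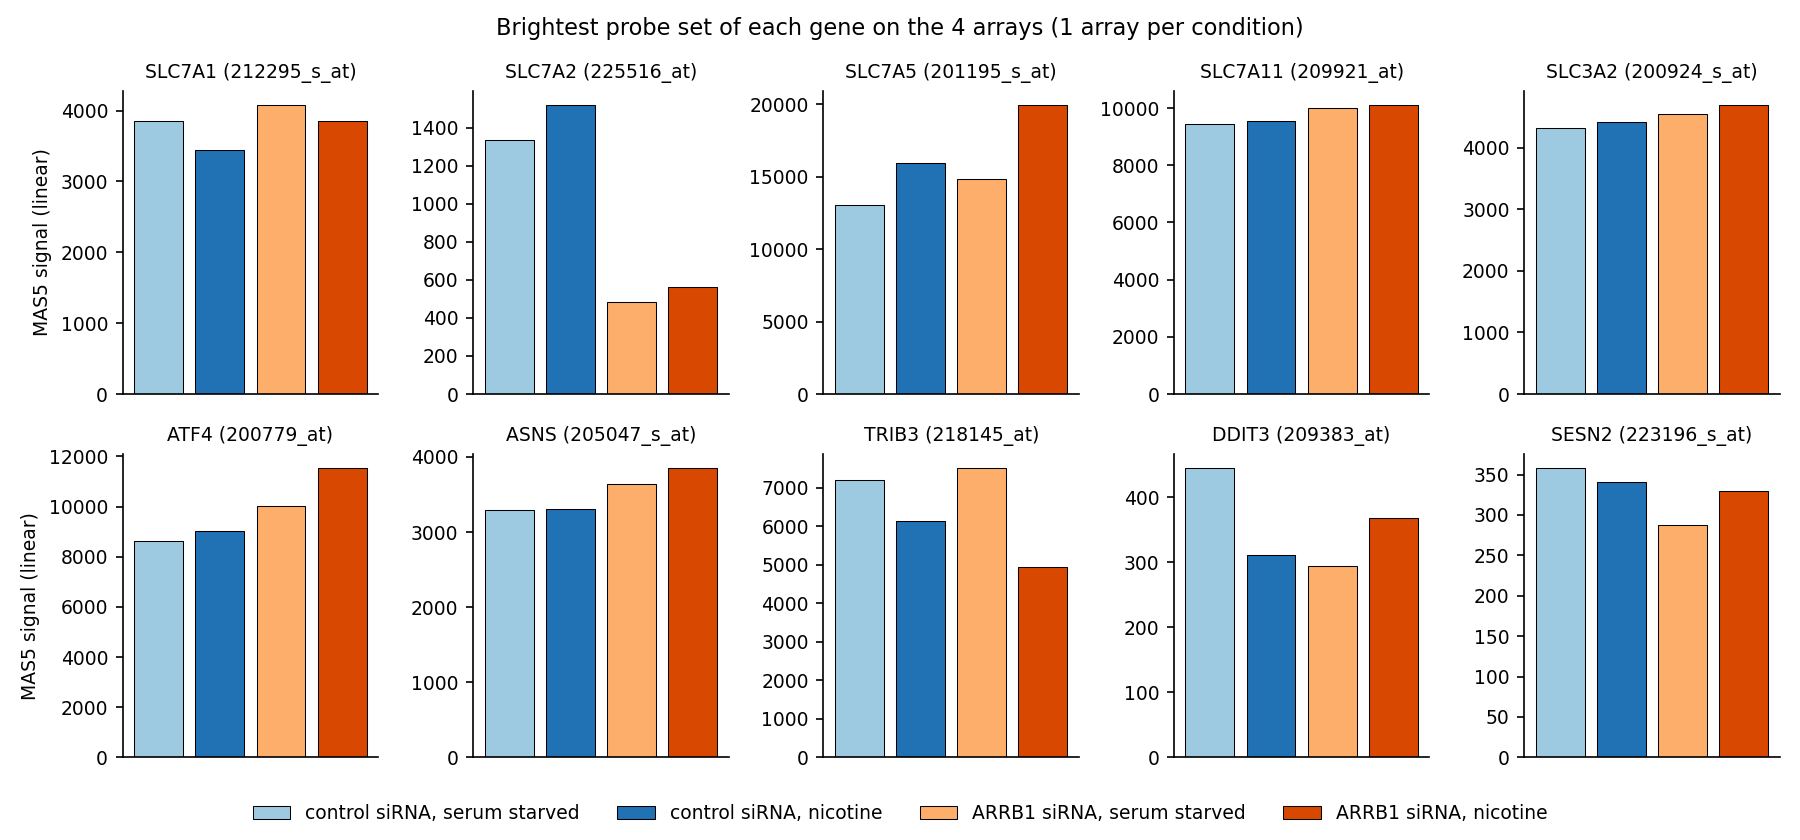
Linear MAS5 signals (vertical axes, from 0, a separate scale for each gene) of the brightest probe set of each of the 10 genes, with 1 bar per array and no error bar since each condition has 1 array. SLC7A2 stands at 1333 and 1519 with control siRNA against 483 and 563 with ARRB1 siRNA, and the highest bar of every other gene is at most 1.53 times its lowest.

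SLC3A2 and the light chains SLC7A11 and SLC7A5, which each form a disulfide-linked pair with it, differed by at most 0.32 on the log2 scale between the siRNAs. SLC3A2, the 4F2 heavy chain that carries several light chains to the cell surface, stood at 4323 without and 4418 with nicotine under control siRNA, and at 4549.8 and 4695 under ARRB1 siRNA. SLC7A11, the light chain of the cystine-glutamate exchanger xCT, had 9445 and 9564 with control siRNA and 10001 and 10109 with ARRB1 siRNA. The highest array was 1.09 times the lowest for SLC3A2 and 1.07 times for SLC7A11, the smallest ranges of the 10 genes. The other SLC7A11 probe sets were expressed as well, and their log2 differences with ARRB1 siRNA were between -0.04 and 0.10 in both pairs.
SLC7A5, the light chain LAT1 that exchanges large neutral amino acids such as leucine, stood at 13058 without and 15946 with nicotine under control siRNA, and at 14864 and 19956 under ARRB1 siRNA. Each nicotine array was above its serum starved partner and each ARRB1 siRNA array above its control siRNA partner. The log2 differences with ARRB1 siRNA were 0.19 and 0.32, but probe sets of similar signal had medians of 0.20 and 0.25, and after quantile normalization the differences of SLC7A5 were 0.01 and 0.07. Thus SLC7A5 differed between the siRNAs by about as much as other probe sets of its brightness.

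ATF4 RNA was somewhat higher with ARRB1 siRNA, while the genes it is known to induce did not share a direction. The ATF4 probe set stood at 8631 without and 9015 with nicotine under control siRNA, and at 10041 and 11529 under ARRB1 siRNA. The log2 differences were 0.22 and 0.35, with medians of 0.11 and 0.12 and SDs of 0.20 and 0.22 for similar probe sets. They were 0.11 and 0.24 after quantile normalization and 0.14 and 0.44 when arrays were centred. ASNS, asparagine synthetase, had 3295 and 3306 with control siRNA and 3635 and 3849.5 with ARRB1 siRNA. Its log2 differences of 0.14 and 0.22 were inside the SDs of 0.25 and 0.29. Its other probe set, 241082_at, had signals of at most 8.13.
TRIB3, a pseudokinase that restrains ATF4 and AKT signaling, stood at 7194 without and 6137 with nicotine under control siRNA, and at 7500.5 and 4942 under ARRB1 siRNA. The lowest array was that of nicotine treated ARRB1 siRNA cells. The log2 difference with ARRB1 siRNA was 0.06 in serum starved cells (-0.02 when centred or after quantile normalization) and -0.31 in nicotine treated cells. The second TRIB3 probe set, 1555788_a_at, had 734 and 684 with control siRNA and 586 and 499 with ARRB1 siRNA, with log2 differences of -0.32 and -0.45 where the SD was 0.32 in each pair. Both TRIB3 probe sets thus had their lowest signal in nicotine treated ARRB1 siRNA cells.
DDIT3, the C/EBP family factor CHOP of the late stress response, stood at 445 without and 311 with nicotine under control siRNA, and at 294 and 369 under ARRB1 siRNA. The highest and the lowest array were both serum starved. The log2 difference with ARRB1 siRNA was -0.60 in serum starved cells (SD of similar probe sets 0.38) and 0.25 in nicotine treated cells (SD 0.40). SESN2, a leucine-binding inhibitor of mTORC1, had 358 and 341 with control siRNA and 287 and 330.3 with ARRB1 siRNA, log2 differences of -0.32 and -0.05. Its second probe set differed by -0.14 and 0.14.
Counted together, 6 of the 10 genes were higher and 2 were lower with ARRB1 siRNA in both pairs, so that 8 kept a direction, where 64.6% of expressed genes did (34.6% higher and 30% lower in both). After quantile normalization 5 were higher and 3 lower, since SLC7A11 turns negative in both pairs while SESN2 goes from -0.05 to 0.03 in nicotine treated cells and TRIB3 is negative in both. The median log2 difference of the 10 genes was 0.08 in serum starved and 0.13 in nicotine treated cells, against 0.02 in each for all expressed genes, and it was -0.01 and 0.06 after quantile normalization. The distance from the median of similar probe sets exceeded 1 SD for 2 genes in serum starved cells (SLC7A2 and DDIT3) and for 3 in nicotine treated cells (SLC7A2, ATF4 and TRIB3), against 25.8% and 24.7% of expressed genes.

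**Figure D2:**
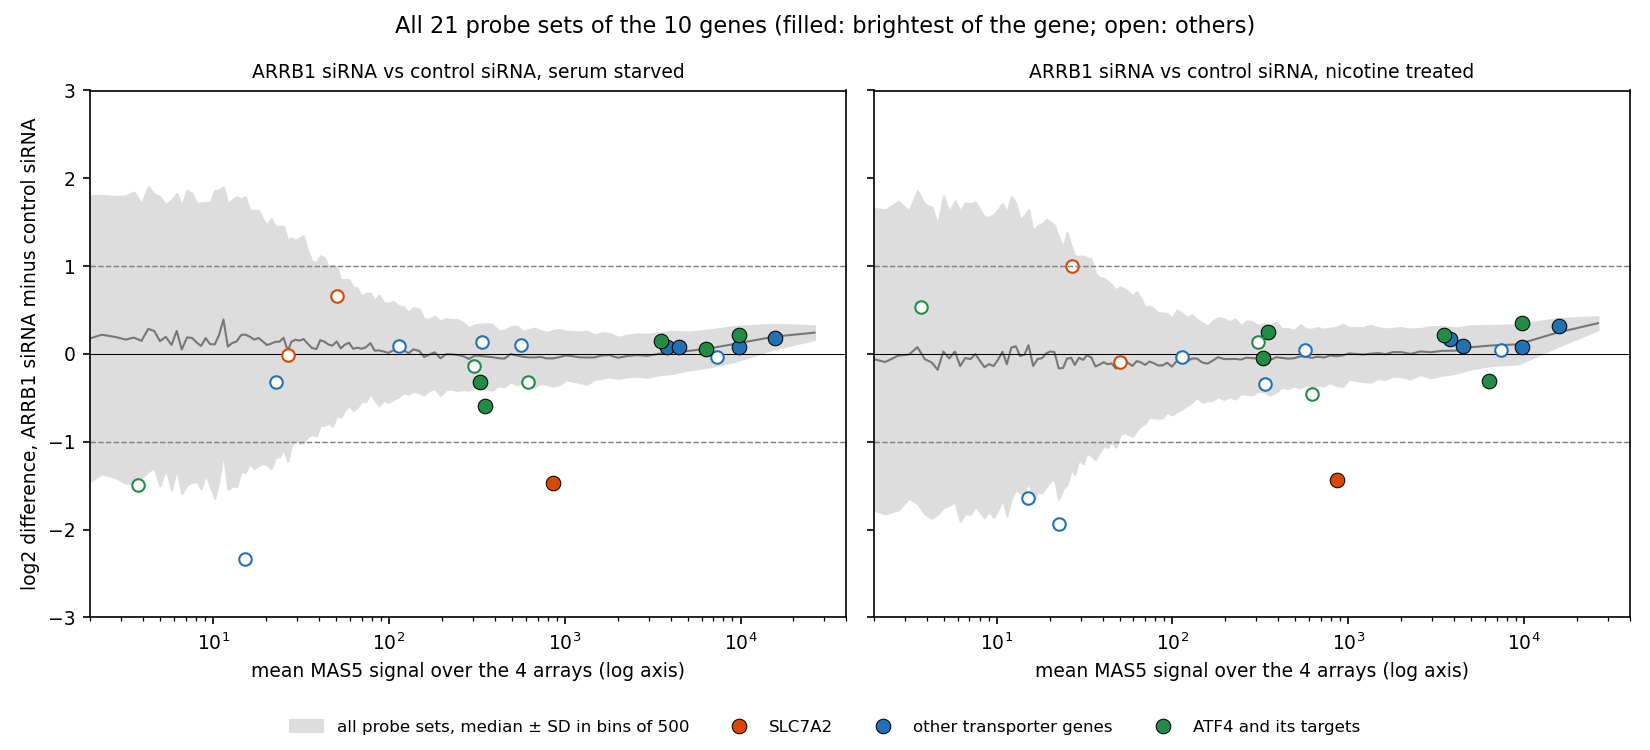
Log2 difference of ARRB1 siRNA minus control siRNA (vertical axis) against the mean signal over the 4 arrays (horizontal log axis) for the 21 probe sets, filled for the brightest of each gene and open for the others, in serum starved (left) and nicotine treated cells (right). The grey band is the median ± SD of all probe sets in bins of 500, and the dashed lines mark 2-fold. The filled SLC7A2 point lies at -1.46 and -1.43, well below the band, and the open SLC7A2 points lie inside it.

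The nicotine comparisons asked whether these genes responded to nicotine, and whether they did so with ARRB1 depleted. None of the 10 genes differed 2-fold with nicotine in either siRNA, where 1.05% of expressed genes did so in control siRNA cells (0.719% higher and 0.335% lower) and 1.45% in ARRB1 siRNA cells (0.495% higher and 0.958% lower). The direction was shared by both nicotine pairs for 8 of the 10 genes, 6 of them higher and 2 lower, where 54.8% of expressed genes shared one. Of the 6, 2 were still higher in both when arrays were centred, SLC7A2 and SLC7A5. The distance from the median of similar probe sets exceeded 1 SD for SLC7A5, TRIB3 and DDIT3 in each pair, 3 of 10 genes, against 22.6% and 24.2% of expressed genes. SLC7A5 was higher with nicotine in both, with log2 differences of 0.29 in control siRNA and 0.43 in ARRB1 siRNA cells, and of 0.19 and 0.25 after quantile normalization. Probe sets of its signal had medians of 0.14 and 0.17 and SDs of 0.09 and 0.17. TRIB3 was lower with nicotine in both, with log2 differences of -0.23 and -0.60 on its brightest probe set (SDs of 0.13 and 0.20) and of -0.10 and -0.23 on the other, where the SDs were 0.23 and 0.28. In ARRB1 siRNA cells the TRIB3 difference of -0.60 was the largest with nicotine among the 10 genes, and it lay between -0.53 and -0.65 under the other scalings. DDIT3 was lower with nicotine in control siRNA cells (-0.52, SD 0.27) and higher in ARRB1 siRNA cells (0.33, SD 0.32).
SLC7A2 differed with nicotine by 0.19 in control siRNA and 0.22 in ARRB1 siRNA cells, inside the SDs of 0.22 and 0.28. The brightest probe sets of SLC7A1, SLC7A11, SLC3A2, ATF4, ASNS and SESN2 differed by -0.16 to 0.20. The SESN2 probe sets did not share a size or, in control siRNA cells, a direction. The second, 223195_s_at, stood at 259 without and 360.1 with nicotine under control siRNA, and at 236 and 397 under ARRB1 siRNA. Its log2 differences with nicotine were 0.48 and 0.75, against -0.07 and 0.20 on the brightest. The SLC7A1 probe set 212290_at was also higher with nicotine, by 0.77 in control siRNA cells (269 to 457) and 0.29 in ARRB1 siRNA cells (295 to 359), whereas the brightest differed by -0.16 and -0.08. For these genes the difference with nicotine depends on the probe set.

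**Figure D3:**
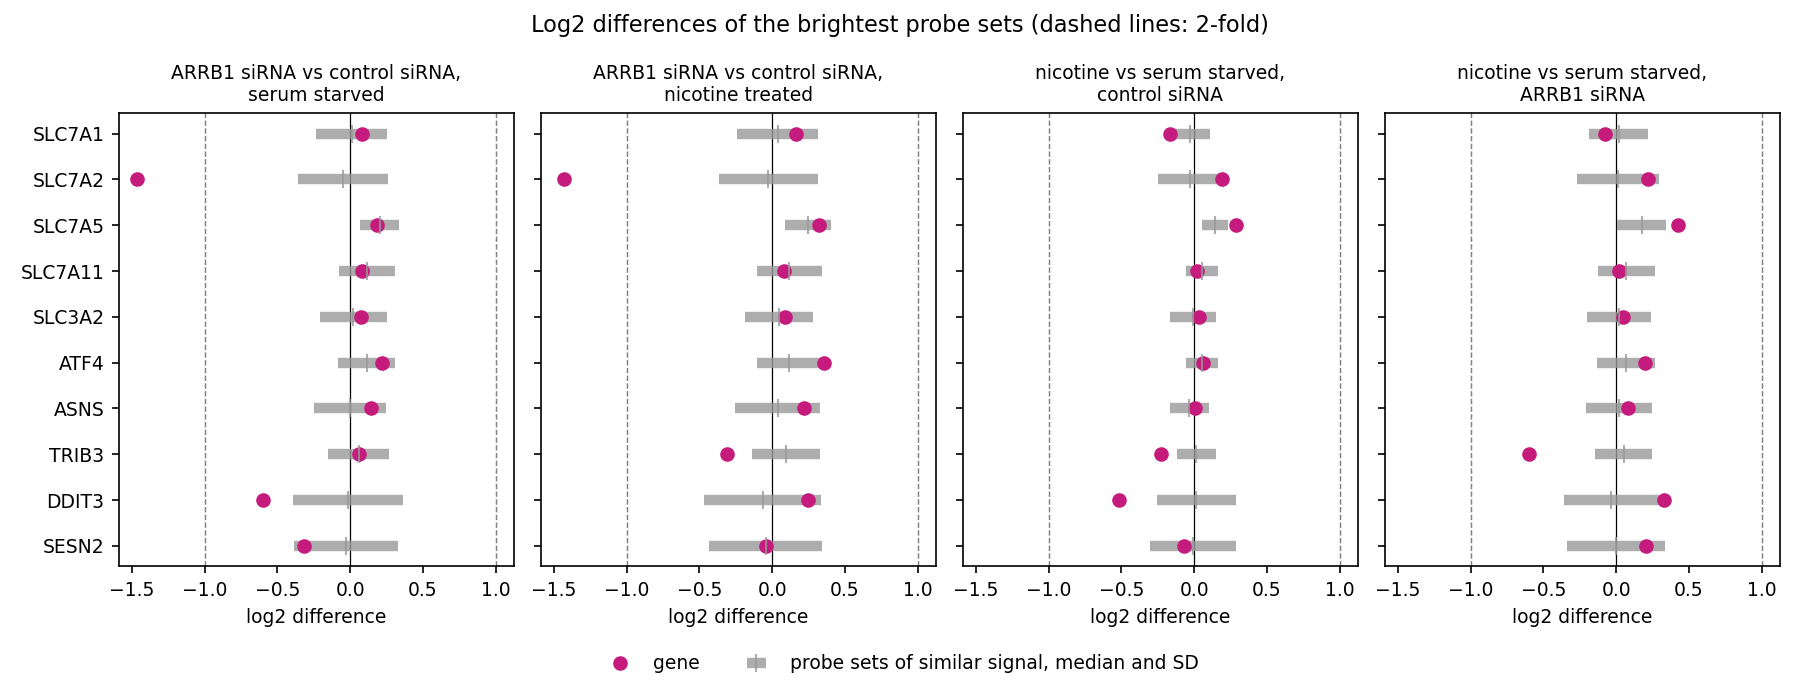
Log2 differences (horizontal axes) of the brightest probe set of each gene (points) in the 4 comparisons, with the median (tick) and SD (grey bar) of the 500 probe sets nearest in mean signal. Dashed lines mark 2-fold. SLC7A2 is past 2-fold in both ARRB1 siRNA comparisons, at -1.46 and -1.43, and no gene is in the nicotine comparisons.

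Other genes of the pathway were read from lists chosen with earlier results of these data known, beginning with the kinases that phosphorylate eIF2α. For the counts of direction below, 34.6% of all expressed genes were higher and 30% lower with ARRB1 siRNA in both pairs. EIF2AK2, the double-stranded RNA kinase PKR, stood at 5247 without and 5547 with nicotine under control siRNA, and at 3166 and 2571 under ARRB1 siRNA, with log2 differences of -0.73 and -1.11 (SDs of 0.24 and 0.26). EIF2AK1, the haem-regulated kinase, differed by 0.06 and -0.01, EIF2AK3, the ER kinase PERK, by 0.08 and -0.12, and EIF2AK4, the amino acid sensing kinase GCN2, by -0.28 and -0.19. The 14 expressed genes of this list, which also holds eIF2B subunits and the phosphatase subunit PPP1R15B, were as often higher as lower in both pairs (4 each), and EIF2AK2 in nicotine treated cells was the 1 difference past 2-fold.
EIF2AK2 is itself induced by interferon, and the listed interferon-induced genes were lower with ARRB1 siRNA. All 9 measured members, EIF2AK2 among them, were lower in both pairs, with medians of -1.66 and -2.08. Of these, 6 were at least 2-fold lower in both, where 0.327% of expressed genes were. The list was chosen with earlier results known, so nothing is read from these counts. IFIT1, an antiviral RNA-binding protein, had 6694 and 8735 with control siRNA against 1627 and 865 with ARRB1 siRNA. The summed signal of the 9 genes was 50532 and 55609 with control siRNA and 26945 and 21074 with ARRB1 siRNA. SLC7A2 was low on the same arrays as these genes, and whether interferon signaling had a part in the SLC7A2 difference was not tested.
Of 22 expressed further ATF4 targets, none was 2-fold different between the siRNAs, 13 were higher and 5 lower in both pairs (11 and 5 after quantile normalization), and the medians were 0.08 and 0.15. The 4 with the largest mean differences were ATF3, a stress-induced repressor (0.36 and 0.63), JDP2, an AP-1 repressor (0.42 and 0.46), TNFRSF10B, the death receptor DR5 (0.34 and 0.34), and PPP1R15A, the inducible eIF2α phosphatase subunit GADD34 (0.34 and 0.31). With nicotine, 10 of the 22 were lower and 2 higher in both siRNAs (8 and 2 after quantile normalization). Of all expressed genes, 54.8% shared a direction in both nicotine pairs, so nothing is read from this count. INHBE, an inhibin chain, was the 1 past 2-fold, at -1.06 in control siRNA cells, where probe sets as dim had an SD of 0.61. INHBE falls outside the rule for naming genes and was chosen after its values were seen.
Genes of serine, proline and one-carbon synthesis had medians of 0.23 and 0.19 with ARRB1 siRNA over 8 expressed genes, and 4 were higher and none lower in both pairs. PHGDH, the entry enzyme of serine synthesis, differed by 0.37 and 0.42, and MTHFD2, a mitochondrial folate enzyme, by 0.43 and 0.35. PSAT1, the next enzyme of serine synthesis, differed by 0.42 and 0.19, and ALDH1L2, a mitochondrial folate enzyme, by 0.43 and -0.01. Of 17 cytosolic aminoacyl-tRNA synthetases, which charge tRNAs with amino acids, 13 were higher and 3 lower in both pairs (9 and 3 after quantile normalization) and the largest mean differences were those of AARS1 (0.28 and 0.28), KARS1 (0.20 and 0.33), EPRS1 (0.17 and 0.35) and CARS1 (0.17 and 0.34), the synthetases for alanine, lysine, glutamate with proline, and cysteine. Probe sets of the signal of KARS1 had medians of 0.20 and 0.25 and SDs of 0.14 and 0.16, so KARS1 differed by about as much as they did. No expressed gene of the synthetase and serine lists was 2-fold different in any of the 4 comparisons.
In the ATF6 and XBP1 branch of ER stress most genes were somewhat lower with ARRB1 siRNA. Of 16 expressed genes, 12 were lower and 2 higher in both pairs, against 30% and 34.6% of expressed genes. After quantile normalization 12 were lower and 1 higher, and the medians as scaled by the authors were -0.13 and -0.17. The 2 higher, outside the rule for naming genes, were the chaperone HSPA5 (0.27 and 0.11) and ERN1 (0.08 and 0.01). Probe sets of the signal of HSPA5 had medians of 0.21 and 0.27. CRELD2, an ER chaperone-like protein, differed by -0.47 and -0.70, DNAJB11, an ER co-chaperone, by -0.45 and -0.57, and XBP1 itself by -0.16 and -0.47, and none of the list was past 2-fold.

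**Figure D4:**
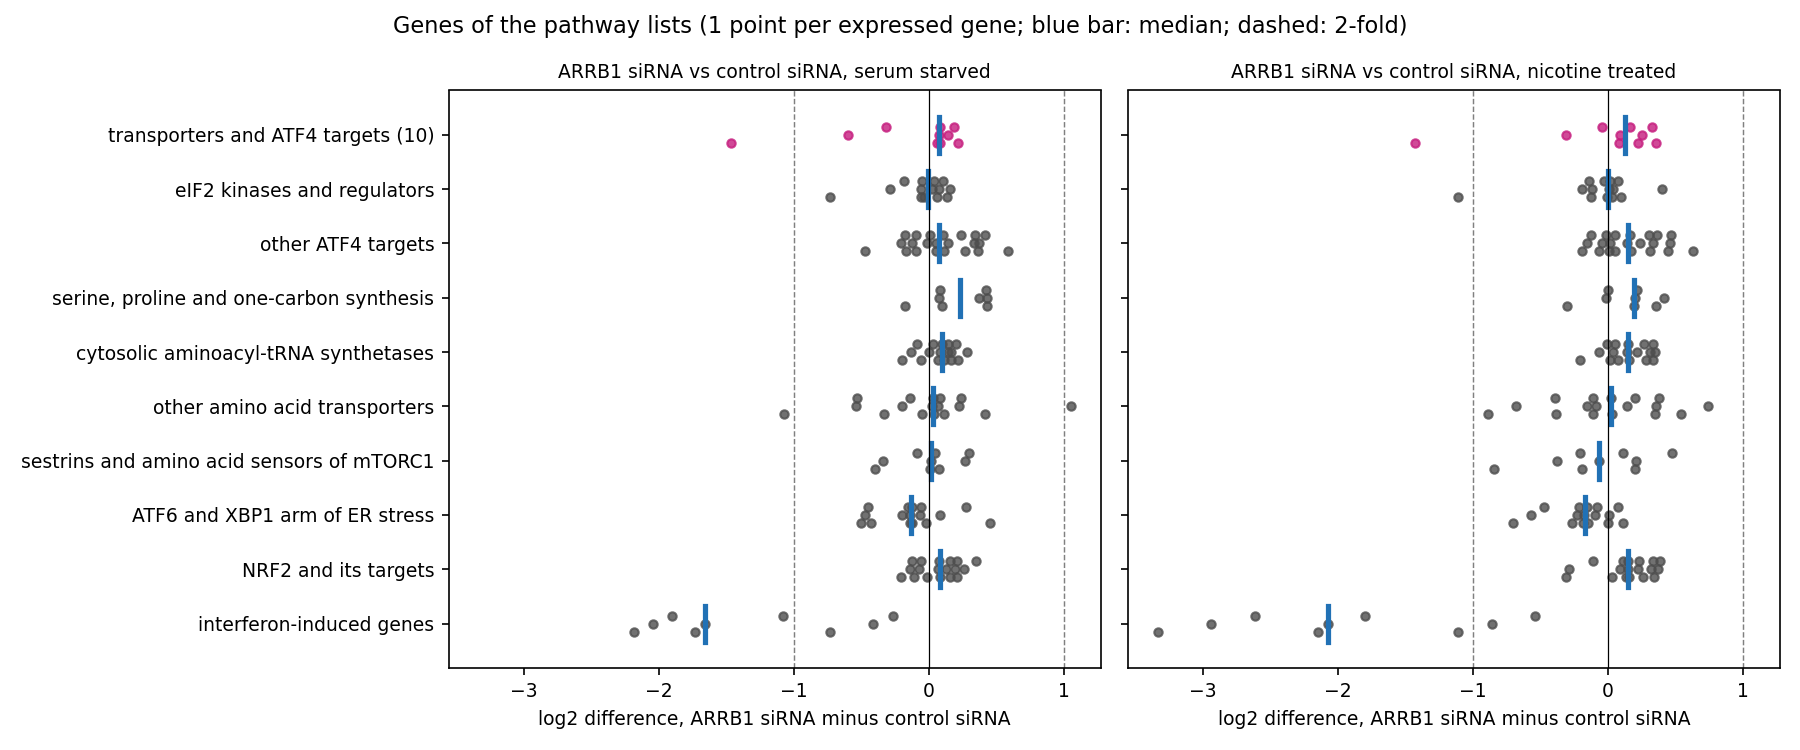
Log2 difference of ARRB1 siRNA minus control siRNA (horizontal axes) in serum starved (left) and nicotine treated cells (right), with 1 point per expressed gene, for the 10 genes (magenta) and the lists of related genes (grey). Blue bars are medians and dashed lines mark 2-fold. The interferon-induced genes have medians of -1.66 and -2.08, and the medians of the other lists lie between -0.17 and 0.23.

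Among 17 further expressed amino acid transporters, SLC6A14, a broad transporter of neutral and cationic amino acids, was higher with ARRB1 siRNA. It was dim, at 85.4 and 98.7 with control siRNA against 177 and 165 with ARRB1 siRNA. Its log2 differences were 1.05 and 0.74, where the SDs of similar probe sets were 0.45 and 0.51. SLC36A1, a proton-coupled transporter of small amino acids, differed by -1.07 in serum starved cells (524 against 249.5). In nicotine treated cells it differed by -0.38, inside the SD of 0.40. SLC7A7, the light chain y+LAT1 that exports cationic amino acids, had 2358 and 2457 with control siRNA and 1634 and 1329 with ARRB1 siRNA, with log2 differences of -0.53 and -0.89 where the SDs were 0.23 and 0.26. SLC1A1, a glutamate and cysteine transporter, differed by -0.54 and -0.68. The medians of the list were 0.03 and 0.02.
NFE2L2, which encodes NRF2, differed by -0.01 and 0.09 with ARRB1 siRNA and KEAP1, its inhibitor, by -0.12 and 0.23. The 18 expressed genes of the NRF2 list were mostly higher with ARRB1 siRNA in both pairs (11 higher and 3 lower), but after quantile normalization 2 were higher and 7 lower, and none was past 2-fold. Those with the largest mean differences were TXNRD1, thioredoxin reductase, at 0.35 and 0.33, and the aldo-keto reductase AKR1C3 at 0.26 and 0.38. For both, probe sets of similar signal had medians of 0.22 and 0.29 and SDs of 0.12 and 0.15. AKR1C3 thus differed by about as much as other probe sets of its brightness, as did TXNRD1 in nicotine treated cells. Of 9 expressed sestrins and amino acid sensors of mTORC1, SESN3, a relative of SESN2, had the largest mean difference, at -0.34 and -0.84. The SDs of similar probe sets were 0.40 and 0.42. SESN3 had 268 and 235 in control siRNA and 212 and 131 in ARRB1 siRNA cells.

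The expressed genes whose pattern over the 4 arrays was nearest to that of SLC7A2, by Euclidean distance of log2 signals centred on each gene's mean, were SDC3, HOXC13 and HELZ2, at distances of 0.14, 0.18 and 0.23. SDC3, a heparan sulfate proteoglycan of the cell surface, had 554 and 557 with control siRNA and 185 and 229 with ARRB1 siRNA. HOXC13, a homeobox transcription factor, had 155 and 159 against 54.3 and 70.1, and HELZ2, a helicase-like coactivator, had 520.1 and 572 against 219.97 and 209.5. With 4 arrays, likeness of this kind describes these samples alone.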

How the data were processed

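Each of the 4 conditions of A549 cells was measured on 1 Affymetrix U133 Plus 2.0 array. The deposited values are linear MAS5 signal intensities, made in GCOS 1.4 according to the submitters' processing notes, while the study's results name Expression Console. On each array the authors' scaling gave a trimmed mean of 500.1 (trim of 2% at each end). The log2 transformation and gene centring of the study's methods are not in these values, and detection calls were not used here.

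After 62 control probe sets were left out, 54613 remained, of which 41091 had 1 gene symbol, 1801 several and 11721 none in the annotation. Signals were compared between arrays as log2 differences, without a floor. Python 3.11.15 was used with pandas 2.3.3 and numpy 2.4.6 for the values and matplotlib 3.10.9 for figures. The 2-fold limit is that of the submitters. Each difference was set beside the median and SD of the 500 probe sets nearest in mean signal between the same arrays. The calculation was tested on simulated data.

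The genes and lists were chosen with earlier results of these data known. Genes named were the 10 genes, ARRB1, the eIF2α kinases, NFE2L2, KEAP1, up to 4 expressed genes per list with the largest mean difference over the 2 ARRB1 siRNA pairs, and the 3 nearest in pattern. Of 154 list genes, 147 were measured here. Alternatives were other scalings, floors, fold limits, filters and choices of probe set. An additive fit of siRNA and nicotine over the 4 arrays was left out, since the genes were chosen with results known.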

Additional observations from a re-analysis of the deposited data

Results flagged for a closer look

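DDIT3 (CHOP) differed with nicotine in opposite directions in the 2 siRNAs, by -0.52 on the log2 scale in control siRNA cells (445 to 311) and by 0.33 in ARRB1 siRNA cells (294 to 369). Each value was larger than the SD of probe sets of similar signal (0.27 and 0.32), though barely so in ARRB1 siRNA cells (0.329 against 0.324). Only 54.8% of expressed genes shared a direction in both nicotine pairs, and 22.6% and 24.2% lay further than 1 SD from the median of similar probe sets. DDIT3 has 1 probe set on the array. With 1 array in each condition the difference between the siRNAs was not tested.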

How the results depend on the processing

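SLC7A2 was the 1 gene at least 2-fold lower with ARRB1 siRNA in each pair under both scalings, both floors, the removal of _x_at probe sets and, added after the data were seen, subtraction of the median of probe sets of similar signal. Its log2 differences there lay between -1.54 and -1.34. When a gene was represented by the median of all its probe sets instead of the brightest, 0 genes passed in either pair or in both, and SLC7A2 stood at -0.01 and -0.10, since 2 of its 3 probe sets are dim. At a 3-fold limit 0 genes passed in either pair or in both. At a 1.5-fold limit 2 genes passed in serum starved cells (SLC7A2 and DDIT3) and 1 with nicotine in ARRB1 siRNA cells (TRIB3). No difference past 2-fold changed sign under any alternative. Of the 40 differences of the 10 genes, 36 moved by less than the SD of similar probe sets after quantile normalization and 39 with centred arrays, and those that moved more under these scalings were of SLC7A5, the brightest of the probe sets. With the median of all probe sets 34 did, and the other 6 were SLC7A2 in both siRNA pairs, SLC7A1 with siRNA in nicotine treated cells (0.16 to -0.35) and with nicotine in control siRNA cells (-0.16 to 0.32), and ASNS with siRNA in serum starved cells (0.14 to -0.68) and with nicotine in control siRNA cells (0.00 to -0.89). Without the filter on dim genes, 3052 and 3291 genes differed 2-fold between the siRNAs and 2985 and 3139 with nicotine. With a filter at the 25th percentile these were 1495, 1634, 1423 and 1529, and at the 75th percentile 40, 69, 5 and 22. No paired analysis was possible because each condition has 1 array, so there are no replicates to block on. An additive fit over the 4 arrays was not run.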
